A study of Mus musculus with 108 samples.

Results

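The regions described here are stretches of the mouse liver genome that were quiescent at 3 months of age, carried the Polycomb state at 12 months under standard diet, and were quiescent at 12 months under caloric restriction. They were selected on the deposited chromatin states themselves. Every autosomal bin of 200 bp in state 8 (quiescent) in SD 3m, in state 6 (repressed Polycomb) in SD 12m and in state 8 in CR 12m was taken, adjacent bins were joined, and stretches of at least 1 kb were kept. This gave 12288 stretches, out of 350777 unbroken autosomal stretches of 1 kb or more with any single combination of the 3 states. Of the 6839689 bins in state 8 in both SD 3m and CR 12m, which could enter the set, 7.70% were in state 6 in SD 12m. The stretches covered 105 Mb, or 34.4% of all autosomal bases in state 6 in SD 12m. As the states chose the regions, the change of state is a description and was not tested.

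Chromatin was obtained from formalin-fixed, paraffin-embedded livers of female C57BL/6 mice, and 4 histone H3 modifications were profiled by ChIP-seq. SD 3m are mice of 3 months on standard diet (8 mice, 30 libraries), SD 12m are mice of 12 months on the same diet (8 mice, 29 libraries), and CR 12m are mice of 12 months that received 30% fewer calories from the age of 3 months (9 mice, 29 libraries). The libraries of a group were merged for each modification before the states were assigned, so that each group has 1 segmentation and no value can be set against the spread between mice. For H3K27me3, the modification that defines state 6, the merged files hold 7, 8 and 6 libraries. Here and below, values of the 3 segmentations set side by side are in the order SD 3m, SD 12m, CR 12m. State 6 covered 8.26%, 12.4% and 9.42% of autosomal bins. The number of libraries and the coverage by state 6 were thus both highest in SD 12m. The reads behind each merged file are unknown, and the part of sequencing depth in the results below was not tested. Because whole liver was used, a change within hepatocytes and a change in the share of other cells cannot be told apart.

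Trimethylation of lysine 27 of histone H3 is deposited by Polycomb repressive complex 2, whose catalytic subunits are encoded by Ezh1 and Ezh2, and is read by Polycomb repressive complex 1. The modification is known for the silencing of developmental regulators, often at CpG-rich promoters, and it can spread along chromatin because the complex binds the product of its own reaction. In liver it keeps genes of other tissues silent. State 6 carries H3K27me3 without the other 3 modifications, state 8 carries little of any of them, and state 7 holds repeats and lamina-associated domains with weak H3K4me3 and minimal H3K27me3. States 1 to 5 are active and flanking transcription start sites (TSS), both kinds of active enhancer, and poised enhancers. The liver label was checked on 25 genes for plasma proteins and hepatocyte enzymes: their TSS lay in states 1 to 4 for 25, 24 and 25 of them. The exception was Cyp7a1, the rate-limiting enzyme of bile acid synthesis, whose TSS was in state 5 in SD 12m. Over all 20021 protein-coding genes, 11410, 12305 and 12373 had the TSS in states 1 to 4. Of 80 cytosolic ribosomal protein genes it was 77 in each group, so that these states are not particular to liver genes.

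Promoters are shown first, since CpG density is the feature best known to attract Polycomb complexes. These are the first 4 protein-coding genes, in order of the length of the stretch, whose promoter window (250 bases before to 50 bases after the start, RefSeq, GRCm38.p6) lay wholly in a stretch. CG dinucleotides are in capitals.
Klk14, chr7:43690168-43690467, + strand: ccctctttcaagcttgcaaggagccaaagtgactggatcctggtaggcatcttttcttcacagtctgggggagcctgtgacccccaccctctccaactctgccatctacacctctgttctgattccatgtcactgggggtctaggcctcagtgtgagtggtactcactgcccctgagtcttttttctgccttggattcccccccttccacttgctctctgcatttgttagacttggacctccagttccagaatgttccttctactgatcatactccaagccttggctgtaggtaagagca
Klk13, chr7:43712317-43712616, + strand: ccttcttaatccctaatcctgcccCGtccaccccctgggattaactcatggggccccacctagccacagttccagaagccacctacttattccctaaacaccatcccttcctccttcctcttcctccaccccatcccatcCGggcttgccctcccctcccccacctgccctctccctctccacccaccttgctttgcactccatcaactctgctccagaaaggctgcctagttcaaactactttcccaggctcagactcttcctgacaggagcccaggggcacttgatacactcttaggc
Klk12, chr7:43768850-43769149, + strand: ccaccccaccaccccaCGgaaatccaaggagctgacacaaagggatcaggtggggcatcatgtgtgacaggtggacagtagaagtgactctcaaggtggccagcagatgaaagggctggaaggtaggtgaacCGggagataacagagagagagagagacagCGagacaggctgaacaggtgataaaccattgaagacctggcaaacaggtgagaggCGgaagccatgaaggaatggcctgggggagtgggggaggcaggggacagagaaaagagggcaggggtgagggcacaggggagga
Dmrt2, chr19:25672161-25672460, + strand: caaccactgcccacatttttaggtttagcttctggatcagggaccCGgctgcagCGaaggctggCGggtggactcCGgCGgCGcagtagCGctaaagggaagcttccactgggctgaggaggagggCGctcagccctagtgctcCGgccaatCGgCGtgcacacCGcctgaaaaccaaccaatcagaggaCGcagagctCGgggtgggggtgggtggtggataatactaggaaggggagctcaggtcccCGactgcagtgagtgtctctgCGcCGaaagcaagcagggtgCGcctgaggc
Klk14, Klk13 and Klk12 encode secreted serine proteases of the kallikrein family, and their windows held 0, 2 and 4 CG dinucleotides. Dmrt2 encodes a transcription factor with a DM domain that acts in early development, and its window held 18. Over the 914 windows of this length that lay wholly in stretches (820 genes) the median was 4 CG dinucleotides (interquartile range 2 to 8). The median over all 31387 autosomal windows was 7, that over the 1897 windows in state 6 in all 3 groups was 7, and that over the 5741 windows in state 8 in all 3 groups was 3. At least 15 CG dinucleotides were found in 15.2% of the windows in stretches, against 35.2% of all windows and 5.59% of those that were quiescent throughout. Klk13 and Klk12 were thus within the interquartile range of the stretches, Klk14 below it and Dmrt2 above. Of the 31387 windows, 5.24% had no CG dinucleotide, as Klk14, and of those in stretches 7.88%.

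Away from promoters, the CpG-richest bin of each of the 3 longest stretches is shown in the same way.
Klk13 bin, chr7:43713801-43714000, + strand: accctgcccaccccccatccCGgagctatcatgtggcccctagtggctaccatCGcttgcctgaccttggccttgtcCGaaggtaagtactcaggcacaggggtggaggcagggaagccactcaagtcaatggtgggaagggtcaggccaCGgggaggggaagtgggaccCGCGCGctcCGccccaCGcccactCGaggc
Htr7 bin, chr19:35984001-35984200, + strand: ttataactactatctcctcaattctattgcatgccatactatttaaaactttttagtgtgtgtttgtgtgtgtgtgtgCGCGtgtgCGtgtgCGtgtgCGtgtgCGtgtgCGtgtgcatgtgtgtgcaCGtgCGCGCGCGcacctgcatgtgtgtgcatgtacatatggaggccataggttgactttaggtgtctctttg
intergenic bin on chromosome 5, chr5:133045601-133045800, + strand: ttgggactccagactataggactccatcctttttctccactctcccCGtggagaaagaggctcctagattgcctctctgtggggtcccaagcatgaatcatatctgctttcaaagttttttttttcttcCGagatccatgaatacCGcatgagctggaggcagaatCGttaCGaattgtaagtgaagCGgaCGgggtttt
The first held 10 CG dinucleotides and spans an exon boundary of Klk13, with 82 of its 200 bases in an exon. The second held 12 and lies in an intron of Htr7, which encodes a serotonin receptor. The third held 7 and lies in no annotated gene. The median over the bins of each of these stretches was 1 CG dinucleotide, so that the bins shown are the extremes of CpG-poor stretches.

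Most stretches were shorter than 10 kb, yet the longer ones held most of the bases. The median length was 6.20 kb, the interquartile range ran from 3.20 to 11.2 kb, and the longest reached 85.0 kb. The 3705 stretches of 10 kb or more held 62.7% of the bases, and the 999 of 20 kb or more are among them. Runs of 8 to 6 to 8 shorter than 1 kb numbered 1353, and the stretches kept 99.4% of all such bases. Just inside the limit, 319 stretches of exactly 1 kb had 42.6% GC and 34.5% overlapped a gene, and just outside it 307 runs of 800 bp had 43.1% and 34.5%. For comparison, stretches in which state 6 replaced state 8 under both diets numbered 7867 (77.3 Mb, median 6.80 kb). Those in which this happened under caloric restriction alone (state 8 in both standard diet groups, a comparison added after the values were seen) numbered 6466 (36.5 Mb, median 4.20 kb, with 106 of 20 kb or more). Stretches that passed from state 8 to state 7 in SD 12m alone numbered 25880 (184 Mb, median 4.80 kb). Of all autosomal bins in which standard diet replaced state 8 by state 6 between 3 and 12 months, 57.2% were quiescent in CR 12m and 42.2% were Polycomb there.

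Of the eligible bins, which were quiescent in SD 3m and CR 12m, 7.65% lay in stretches of 1 kb or more (Wilson 95% interval 7.63 to 7.67, which covers counting of bins only, and neighbouring bins are not independent). Among chromosomes the share was lowest on chromosome 16 (4.87%), had a median of 7.22%, and was highest on chromosome 11 (14.7%), followed by chromosomes 9 (10.9%) and 19 (9.76%). For the gain under both diets, taken as a share of all bins in state 8 in SD 3m, chromosomes 11 (9.36%) and 9 (8.28%) were highest too. The order differed further down, and there chromosome 19 had the lowest value (1.63%). State 6 covered 6.39%, 10.4% and 5.15% of chromosome 19, and its stretches were the longest, with a median of 8.10 kb.

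**Figure D1:**
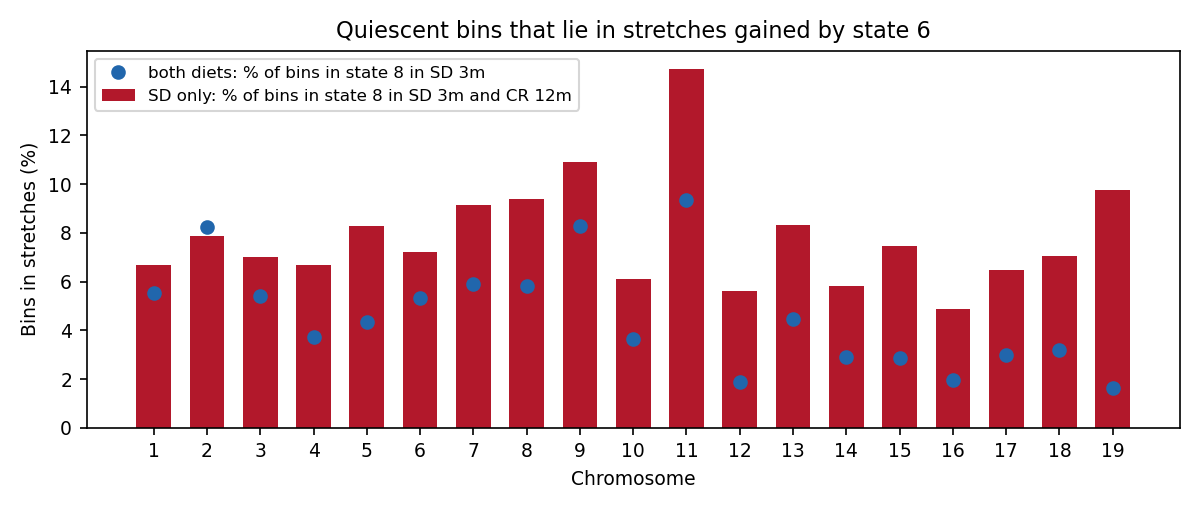
Percent of bins in stretches for each autosome (x axis: chromosome; y axis: percent of bins). Bars give stretches gained in SD 12m only, as a share of bins in state 8 in SD 3m and CR 12m, and dots give stretches gained under both diets, as a share of bins in state 8 in SD 3m. The bar of chromosome 11 stands at 14.7% and that of chromosome 16 at 4.87%.

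The stretches clustered along the chromosomes. In windows of 1 Mb, the 245 of 2454 windows with most stretch bases held 40.5% of them, where the corresponding share was 51.9% for the stretches gained under both diets and 54.6% for those that passed to state 7. Of the windows, 612 held no stretch. Of the 10 windows with most stretch bases, 5 were on chromosome 11. The highest was chr11:92000001-93000000, which contains no curated gene, with 32 stretches over 383.8 kb. State 6 covered 0%, 50.7% and 15.6% of it. Next came chr13:71000001-72000000, which holds Irx1, a homeobox gene, with 383.4 kb in 31 stretches and state 6 at 2.16%, 54.1% and 16.5%. The third was chr11:47000001-48000000, which holds Sgcd, encoding delta-sarcoglycan of the muscle membrane complex, with 371.6 kb in 21 stretches and state 6 at 0%, 43.3% and 8.60%. These windows were ranked by stretch bases, which sets SD 12m above the other segmentations. Over 2397 windows the coverage by stretches went along with that by stretches gained under both diets (Spearman's rho 0.72), and hardly with GC content (-0.03), the number of TSS (-0.12) or the coverage by state 6 in SD 3m (0.10). These correlations describe windows of the same segmentations, which are no replicates. Counted over eligible bins, the share in stretches did differ with these features. It was 10.9% at a GC content of 44% or more and 4.51% under 38%. Within 2 kb of a TSS it was 12.5%, and at 10 to 50 kb 8.08%. Within 5 kb of state 6 in SD 3m it was 18.5%, and beyond 100 kb 5.21%.

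Proximity to Polycomb at 3 months was less marked than for the regions gained under both diets. A state 6 bin of SD 3m was adjacent to or within 1 kb of 17.4% of the stretches (Wilson 95% interval 16.7 to 18.1), against 43.2% of those gained under both diets and 17.3% of those gained under caloric restriction alone. Among stretches that were quiescent in all 3 groups it was 12.7%, with a median gap of 134 kb. The order of the first and second was the same on each of the 19 chromosomes, with 9.78% to 24.8% against 32.7% to 51.2%. The median gap to the nearest state 6 bin of SD 3m was 57.4 kb for the stretches, 9.40 kb for those gained under both diets, 39.6 kb for those gained under caloric restriction alone and 689 kb for those that passed to state 7. Bins near Polycomb were nonetheless more often in a stretch. Of eligible bins within 1 kb of state 6 in SD 3m 19.6% were in a stretch, of those at 5 to 20 kb 14.3%, and of those at more than 100 kb 5.21%. Within 5 kb the share was 18.5%, higher than beyond 100 kb on 19 of 19 chromosomes. The decline was steeper for bins gained under both diets, from 22.6% to 1.79%, and the change to state 7 ran the other way, from 0.421% to 18.9%.

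**Figure D2:**
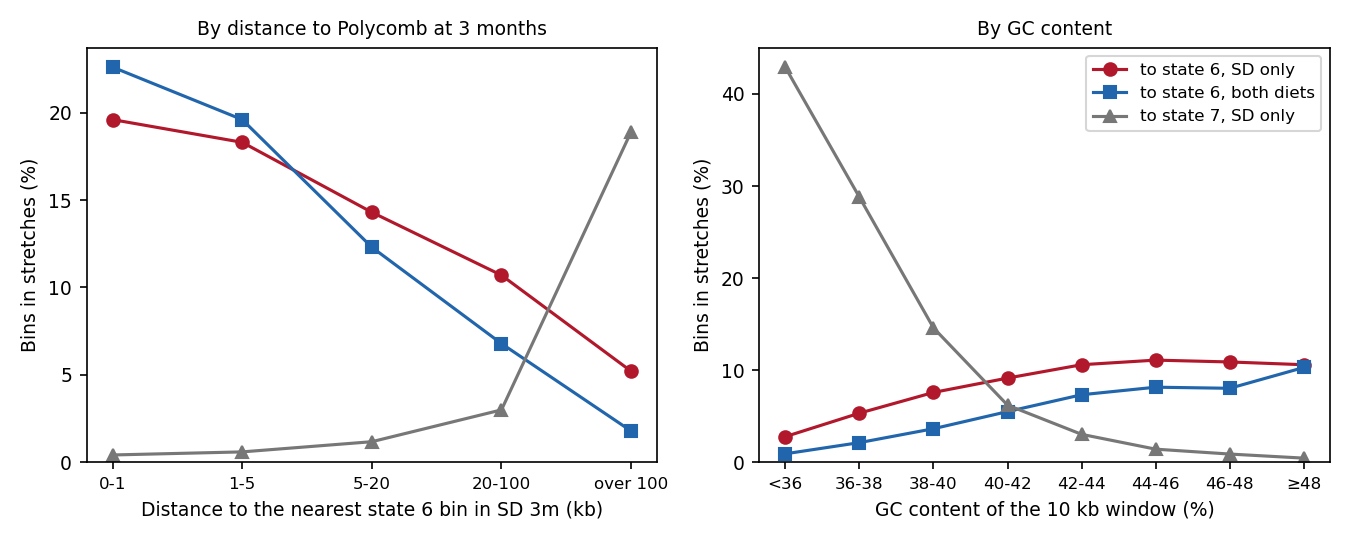
Percent of bins in stretches (y axis) by distance to the nearest state 6 bin of SD 3m (left, kb) and by GC content of the surrounding 10 kb (right, percent). Circles are stretches gained by state 6 in SD 12m only, squares those gained under both diets and triangles those that passed to state 7 in SD 12m only. Circles fall from 19.6% next to Polycomb to 5.21% beyond 100 kb and rise from 2.79% to 11.1% with GC content, while triangles fall from 42.9% to 0.457% with GC content.

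Many stretches were complete domains of their own. Of the 12288, 4488 (36.5%, holding 39.1% of the bases) had no state 6 on either side in SD 12m. Among stretches gained under caloric restriction alone, counted on CR 12m domains, the share was 25.4%. Among stretches gained under both diets it was 7.80%, lower on each of the 19 chromosomes (1.25% to 12.3% against 27.3% to 60.8%). A stretch gained under both diets can be a whole SD 12m domain only if state 6 in CR 12m reaches both domain edges. The order of these shares is therefore set in part by the rule. A further 3618 stretches (29.4%) belonged to SD 12m domains that held state 6 in CR 12m but not in SD 3m. Domains with state 6 in both SD 3m and CR 12m held 3013 (24.5%), and these domains were larger (median 47.8 kb). Domains with state 6 in SD 3m but not in CR 12m held 591 (4.81%), and the remaining 578 (4.70%) lay in domains without state 6 in either. The 12288 stretches belonged to 9846 of the 14996 autosomal state 6 domains of SD 12m, or 65.7%.

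The immediate neighbours were mostly quiescent. Of the 24576 adjacent bins, 55.2% were in state 8 in all 3 groups, 26.5% had gained state 6 under both diets, 8.22% had state 6 at both ages of standard diet but not in CR 12m, and 4.06% had passed to state 7 in SD 12m alone. Bins with state 6 in all 3 groups made up 0.183% and states 1 to 5 in SD 12m 0.407%. The former can adjoin a stretch only where SD 3m and CR 12m change state at the same bin edge. Their low share thus follows largely from the rule. Outward from the edge, state 6 in SD 12m fell from 40% of flanking bins at 0.2 kb to 34.6% at 5 kb and was 34.7% at 20 kb, well above its coverage of the autosomes. In CR 12m it was 26.8% at the edge and 23.4% at 20 kb, and in SD 3m 8.46% and 10.8%. Flanks of the stretches gained under both diets had more state 6 in each segmentation, with 24.6%, 72.1% and 56.1% at 0.2 kb. The segmentation model smooths states along the chromosome, and its part in the shape of these profiles was not tested.

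**Figure D3:**
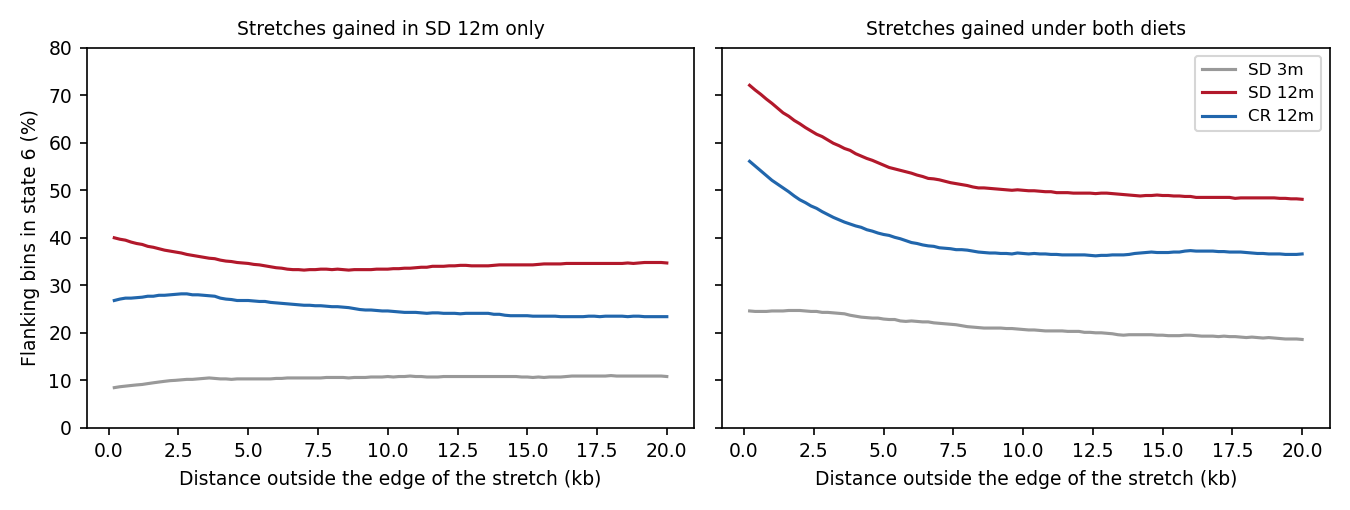
Percent of flanking bins in state 6 (y axis) against the distance outward from the edge of the stretch (x axis, 0.2 to 20 kb), for stretches gained in SD 12m only (left) and under both diets (right). Each line is 1 of the 3 segmentations. The SD 12m line starts at 40% on the left and at 72.1% on the right.

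In base composition the stretches lay between the regions gained under both diets and those that passed to state 7. GC content was 41.7%, against 40.7% of the eligible bins, 43.0% of the stretches gained under both diets and 37.3% of those that passed to state 7. It exceeded that of eligible bins on 18 of 19 chromosomes, was below the regions gained under both diets on 19 and above those that passed to state 7 on 19. The observed over expected CpG ratio was 0.175, against 0.174 of eligible bins, and was higher than theirs on 13 chromosomes and lower on 6. It was 0.192 where state 6 was gained under both diets and 0.222 where it was present in all 3 groups. Repeats made up 26.3% of stretch bases and 38.2% of eligible bases, lower on 19 of 19 chromosomes. Bins made wholly of repeats were in a stretch in 2.61% of cases and bins free of repeats in 10.8%. The authors had removed reads with a mapping quality of 0, and the part of mappability in these shares was not tested. By GC content of the surrounding 10 kb, the share in stretches rose from 2.79% under 36% GC to 9.15% at 40 to 42% and 11.1% at 44 to 46%, and was 10.6% at 48% or more.

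Genes overlapped 38.6% of the stretches (Wilson 95% interval 37.7 to 39.4; 31.8% to 48.2% among chromosomes), and 35.5% of stretch bins lay in gene bodies, against 31.8% of eligible bins and 38.8% of bins gained under both diets. The share of eligible bins in a stretch was 8.64% in introns of protein-coding genes, 6.46% in their exons, 11.1% in the 5 kb upstream of their TSS and 7.16% outside genes. Within 2 kb of a TSS it was 12.5% and at 10 to 50 kb 8.08%, the former being higher on 19 of 19 chromosomes. Along genes of 10 kb or more the 10% of the body nearest the TSS stood at 14.8% and the 10% nearest the end at 6.53%, again in this order on 19 of 19 chromosomes.

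The state of a gene's start at 3 months separated the bodies most. In bodies of protein-coding genes, over 2 kb away from a TSS, eligible bins were in a stretch in 0.638% of cases where the gene's own TSS was in state 1 or 2 in SD 3m and in 0.626% where it was in state 3 or 4. Where the TSS was in state 5 the share was 4.87%, where it was in state 8 it was 11.9%, and where it was in state 6 it was 14.6%. The shares for states 6 and 8 exceeded that for states 1 and 2 on each of the 19 chromosomes. For the gain under both diets the values were 0.336% for states 1 and 2, 13.2% for state 6 and 6.87% for state 8. Bodies with an active start at 3 months were low for both, and the shares behind Polycomb and quiescent starts were closer to each other for the stretches than for the gain under both diets.

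The TSS of 674 of 24963 autosomal genes lay in a stretch, a background of 2.70%, and the 674 were spread over 608 stretches. With predicted transcripts included the count was 1142. Of the genes whose TSS was in state 8 in both SD 3m and CR 12m (5348), 12.6% had it in a stretch, while 4167 kept state 8 in SD 12m, 408 had state 7 and 83 state 4. By class, the 674 comprised 486 of 20021 protein-coding genes (2.43%), 150 of 3220 long non-coding RNA genes (4.66%), 24 of 1136 microRNA genes (2.11%) and 13 of 381 transcribed pseudogenes (3.41%). TSS were found at 6.44 per Mb of stretch, 3.91 per Mb of eligible sequence, 9.55 per Mb gained under both diets and 17.2 per Mb in state 6 in all 3 groups.

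The 10 longest stretches show the range of settings. Of these, 5 were on chromosome 19, 3 overlapped no curated gene, and 5 were complete SD 12m domains. The longest, chr7:43684801-43769800 (85.0 kb), covered the whole of Klk14 and Klk13, the non-coding 2310002F09Rik and the start of Klk12, with 287 exon bases of the last. It made up its whole SD 12m domain, and the nearest state 6 bin of SD 3m was 49.4 kb away. The second, chr19:35981601-36053200 (71.6 kb), lay wholly in introns of Htr7. The TSS of Htr7 was in state 6 under standard diet at both ages and in state 8 in CR 12m. The stretch adjoined state 6 of SD 3m, and of its SD 12m domain of 102 kb 29.1% was in state 6 in SD 3m and 11.8% under caloric restriction. The third, chr5:133037801-133107200 (69.4 kb), was intergenic, with the nearest TSS (Auts2) at 495 kb and the nearest state 6 of SD 3m at 389.0 kb.

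Further down this order, chr19:25672001-25739600 (67.6 kb) held all of Dmrt2. In chr9:73491601-73556800 (65.2 kb) the whole stretch lay in Unc13c, which encodes a factor that primes synaptic vesicles, with 649 bases in exons, next to state 6 of SD 3m. For chr19:16936201-17001400 (65.2 kb) 69.5% of the bases were in Prune2, whose TSS it included. In chr19:22228401-22293600 (65.2 kb) all bases were in introns of Trpm3, a cation channel gene, 89.4 kb from its TSS and 997.2 kb from any state 6 bin of SD 3m. Intergenic stretches of 66.4 kb on chromosome 14 and 65.8 kb on chromosome 19, and one of 65.6 kb over the non-coding Gm13219 on chromosome 2, complete the 10.

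**Figure D4:**
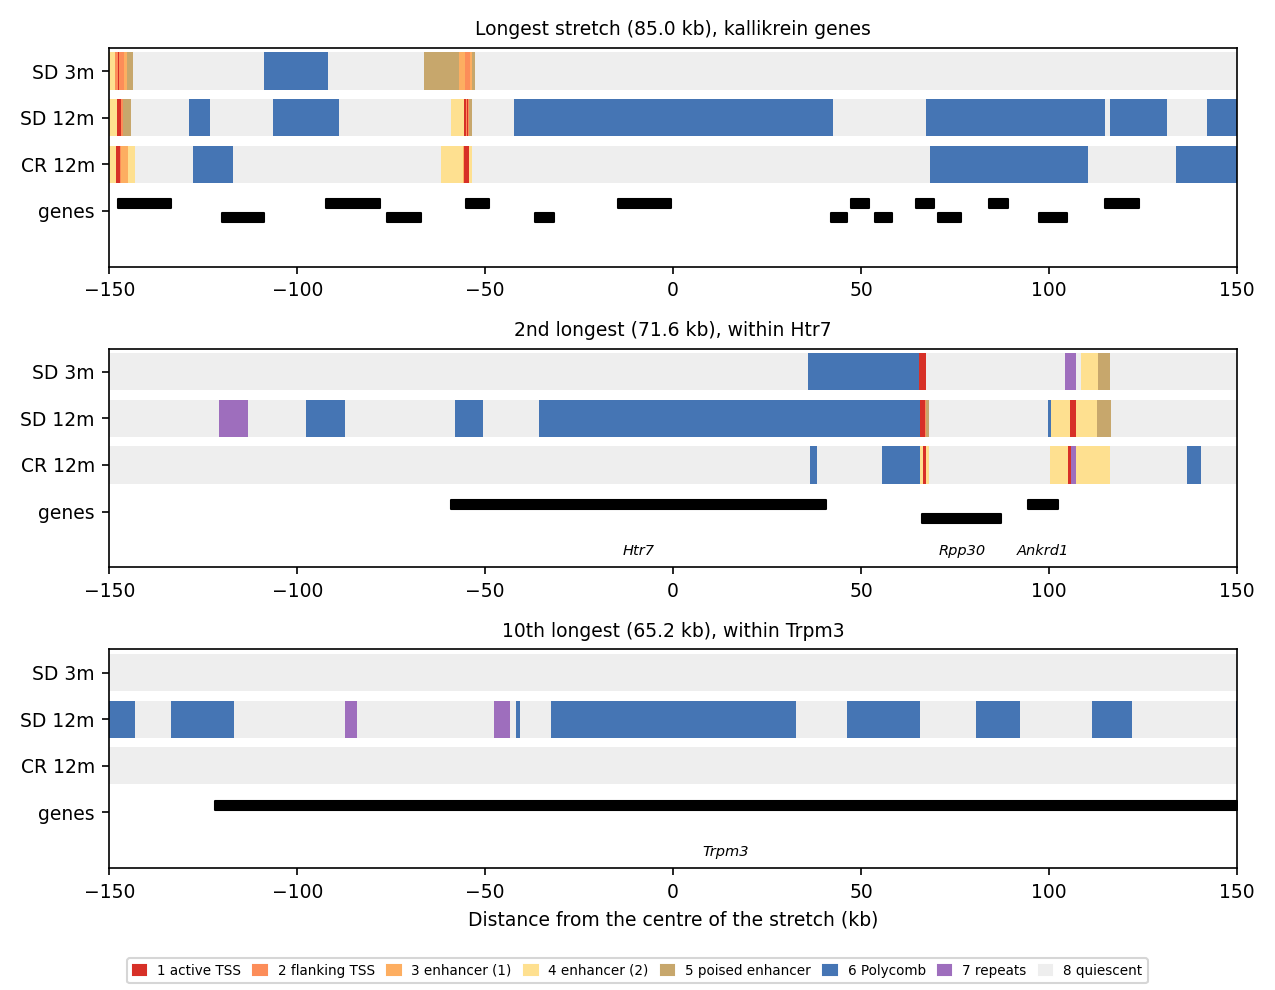
States in the 3 segmentations (rows) by distance in kb from the centre of 3 of the longest stretches (x axis), with protein-coding genes as black bars. Around the longest stretch state 6 covered 5.73%, 59.7% and 23% of the plotted bins, around the second 9.87%, 40.1% and 5.20%, and around the stretch in Trpm3 0%, 43.9% and 0%.

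The genes with most stretch bases were long ones. The 10 protein-coding genes with the most kb in stretches had 244 to 326 kb each, in bodies of 857 to 2241 kb, and all 10 had their TSS in state 8 in SD 3m. Opcml, a GPI-anchored adhesion molecule of the IgLON family, held 326 kb in 27 stretches, or 28.7% of its body. State 6 covered 0.793%, 55.0% and 31.6% of it. Its neighbour Ntm, of the same family, held 286 kb (29.5%), with state 6 at 10.7%, 61.0% and 37.0%. Nrxn3, a presynaptic adhesion receptor, held 319 kb in 31 stretches (20.7%), with state 6 at 0.221%, 24.4% and 6.56%. Trpm3 held 249 kb in 14 stretches (29.0%), with state 6 at 0%, 29.0% and 0%. Dcc, the netrin receptor of axon guidance, held 244 kb (22.3%), with state 6 at 0%, 23.6% and 4.99%. Thsd7b held 296 kb (31.2%), Tenm2, a teneurin, 262 kb (28.0%), Agbl1 249 kb (27.8%), Csmd1 245 kb (14.9%) and Cntnap2, a neurexin-like protein, 244 kb (10.9%). The kb in stretches depend on gene length, and the ranking uses the values that chose the regions, so that the lower state 6 in CR 12m is a description.

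By share of the body, among 9101 genes of 20 kb or more, 2 were wholly within a stretch. These were Cacng8, an auxiliary subunit of AMPA receptors, and Macc1, in stretches of 44.8 and 39.2 kb. Cpa3, the carboxypeptidase of mast cell granules, had 98.5% of its body in a stretch of 31.4 kb. Htr7 followed with 79.2%, and with state 6 at 5.01%, 84.2% and 1.80%. The other members of this group were Adgrf4, an adhesion G protein-coupled receptor (77.5%), A530021J07Rik (76.9%), Kcnk12, a potassium channel subunit (76.6%), Gm1043 (72.0%), Otop1, a proton channel (71.1%), and Otol1, a collagen-like protein of the inner ear (70.8%). State 6 covered 22.2% to 29.2% of the bodies of A530021J07Rik, Otop1 and Otol1 in CR 12m. Over all 20021 protein-coding genes, 1744 had a stretch in the body, 1098 had at least 10% of it in stretches and 312 at least 50%.

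The TSS in the longest stretches were those of Klk12, Klk13 and Klk14 (85.0 kb), Dmrt2 (67.6 kb), Prune2 (65.2 kb), Olfr466, an olfactory receptor (58.4 kb), Fam135b (56.2 kb), Pdzd2, a protein with PDZ domains (55.0 kb), and Ms4a2, Ms4a3 and Oosp2 (1 stretch of 53.4 kb). Ms4a2 encodes the beta chain of the high-affinity IgE receptor of mast cells. Their TSS have the states that chose the regions. The bodies of Klk13, Klk14, Dmrt2, Olfr466, Ms4a2, Ms4a3 and Oosp2 were covered wholly, that of Fam135b for 45.4%, Prune2 for 43.8%, Klk12 for 17.4% and Pdzd2 for 16.9%.

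The lists of genes were read as shares of body bins in stretches, beside 3.63% over all protein-coding genes and beside 8.48% of those body bins that were eligible. A stretch was present in 8.71% of all protein-coding genes and at the TSS of 2.43%, and having one depends on body length and on how much of the body was eligible. By eligible bins, the lists of channels (15.1%), neurotransmitter receptors and developmental transcription factors (14.7% each) stood above those of Wnt, Fgf and Bmp ligands (13.2%), collagens (12.6%) and synaptic genes (11.4%). The value of the ligand list rests mostly on 1 gene, Fgf12. The 8.48% takes in genes with an active start at 3 months. Over 2 kb from a TSS, eligible body bins stood at 0.638% where the gene's TSS was in state 1 or 2 in SD 3m. With the TSS in state 8 the share was 11.9%, and with the TSS in state 6 it was 14.6%. The lists were not matched for the state of the TSS. For 112 neurotransmitter receptors the share was 10.7% (14.7% of eligible body bins), 48 of them (42.9%) had a stretch and 14 (12.5%) had their TSS in one. State 6 covered 6.79%, 22.2% and 14.5% of their bodies. Among them, Gria1, an AMPA receptor subunit, had 44.9% of its body in stretches, with state 6 at 0%, 71.6% and 35.5%. Gabrb2, a GABA receptor subunit, had 52.7%, with state 6 at 0%, 60% and 7.42%, and its TSS lay in a stretch of 52.6 kb. Grik1 and Grm5, glutamate receptors, had 29.1% and 21.3%.

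For 134 potassium, sodium and calcium channel genes the share was 9.10% (15.1% of eligible bins), with a stretch in 64 (47.8%) and a TSS in a stretch for 18 (13.4%). Their median body was 42.7 kb, against 17.0 kb over all protein-coding genes. Kcnj6, an inward rectifier, had 45.7% of its body in stretches and state 6 at 6.5%, 67.3% and 20.7%. Kcnip4, Cacna2d3 and Kcnma1 had 13.3%, 14.2% and 14.7%. For 97 synaptic and neuronal adhesion genes the share was 8.89% (11.4% of eligible bins), with a stretch in 62 (63.9%) and a TSS in a stretch for 11 (11.3%). These genes are long, with a median body of 370 kb, and 15% of their bodies passed to state 7 in SD 12m alone. The 90 cadherins and protocadherins stood at 6.06% (10.1% of eligible bins), with 8 TSS in stretches (8.89%). Cdh13 had 18.6%, Cdh23 17.3%, Pcdh15 12.5% and Cdh4 12.4%.

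Developmental transcription factors, the classical Polycomb targets, mostly had a Polycomb start at 3 months. Of 292 genes, the TSS was in state 6 for 165, 202 and 192, and 5 had it in a stretch (1.71%, against 2.43% of all protein-coding genes). Of their body bins 4.26% were in stretches. Of the eligible ones, which made up 28.9% of the bodies, it was 14.7%, above the 8.48% of all protein-coding genes. It was close to the 14.6% found, over 2 kb from a TSS, in bodies of all protein-coding genes with the TSS in state 6 in SD 3m. Pax5 had 23% of its body in stretches, with state 6 at 45.6%, 86.9% and 57.7%, Runx2 13.1% and Mecom 9.34%. Among 64 Wnt, Fgf and Bmp ligand genes, 8 (12.5%) had a stretch and 1 (1.56%) its TSS in one, and 7.07% of their body bins were in stretches. Gdf10 had 54.5%, Bmp3 41.6%, Fgf12 27.9% and Fgf14 1.77% of the body in stretches. Fgf12 held 166 kb, Bmp3 and Fgf14 12.4 kb each and Gdf10 7.20 kb, so that the share of this list rests mostly on Fgf12. Of 42 collagen genes 19 (45.2%) had a stretch and none its TSS in one, with 6.84% of body bins in stretches and a median body of 111 kb. The largest amounts were in Col22a1 (22.5%), Col19a1 (15.5%), Col6a4 (43.5%) and Col24a1 (15.5%).

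Chemosensory receptor genes lie in tandem clusters. Of 1097 olfactory receptor genes 83 had their TSS in a stretch (7.57%), and 7.71% of their body bins were in stretches (11.1% of eligible ones). Their TSS were in state 6 for 108, 240 and 154 genes. Olfr631, Olfr1508 and Olfr391 were covered wholly, by stretches of 35.2, 28.4 and 37.0 kb, and Olfr78 for 35.8%. Of 349 vomeronasal receptor genes 17 had it in a stretch (4.87%), and their bodies stood at 3.65% (4.84% of eligible bins). Vmn2r80 had 65.8%, Vmn2r27 46%, Vmn2r90 42.1% and Vmn2r118 20.9%. Of the body bins, 15.3% in olfactory and 15% in vomeronasal receptor genes passed to state 7 in SD 12m alone. Receptor paralogs share sequence, so that their states are uncertain where reads map to several copies.

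The next lists had no stretch or a low share of body bins, and less of their bodies was eligible than the 42.8% over all protein-coding genes. None of the 80 cytosolic ribosomal protein genes and none of the 30 genes for Polycomb subunits and H3K27 enzymes had a stretch. Only 1.69% and 12.1% of their body bins were eligible, so that the rule itself left little room for one. Zinc finger protein genes stood at 1.34% of body bins, and 13 of 386 genes had a stretch. Of their eligible bins, which made up 34.7% of the bodies, 3.87% were in stretches, below the 8.48% of all protein-coding genes. The TSS of 302 of the 386 was in states 1 to 4 in SD 3m, and the shares were not matched for this. The share of the body was 63.9% in Zfp616, 23.7% in Zfp536, 5.57% in Zfp423 and 4.04% in Zfp385b. Cytochrome P450 genes stood at 1.41% (4.68% of eligible bins, which made up 30.1% of the bodies), and 4 of 97 had a stretch. These were Cyp4f18 (51.4%), Cyp19a1, the aromatase (20.3%), Cyp26b1, which degrades retinoic acid (15.9%), and Cyp4a12b (10.1%). Chemokines and interleukins with their receptors stood at 1.99%, with 8 of 129 having a stretch and 3 a TSS in one. Of their eligible bins, which made up 21.5% of the bodies, 9.24% were in stretches, close to the 8.48% of all protein-coding genes. Il1f5 was covered wholly, Il12a for 42.5%, Il18rap for 26.2% and Il23r for 23.1%. Their TSS were in state 6 for 28, 26 and 25 genes.

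**Figure D5:**
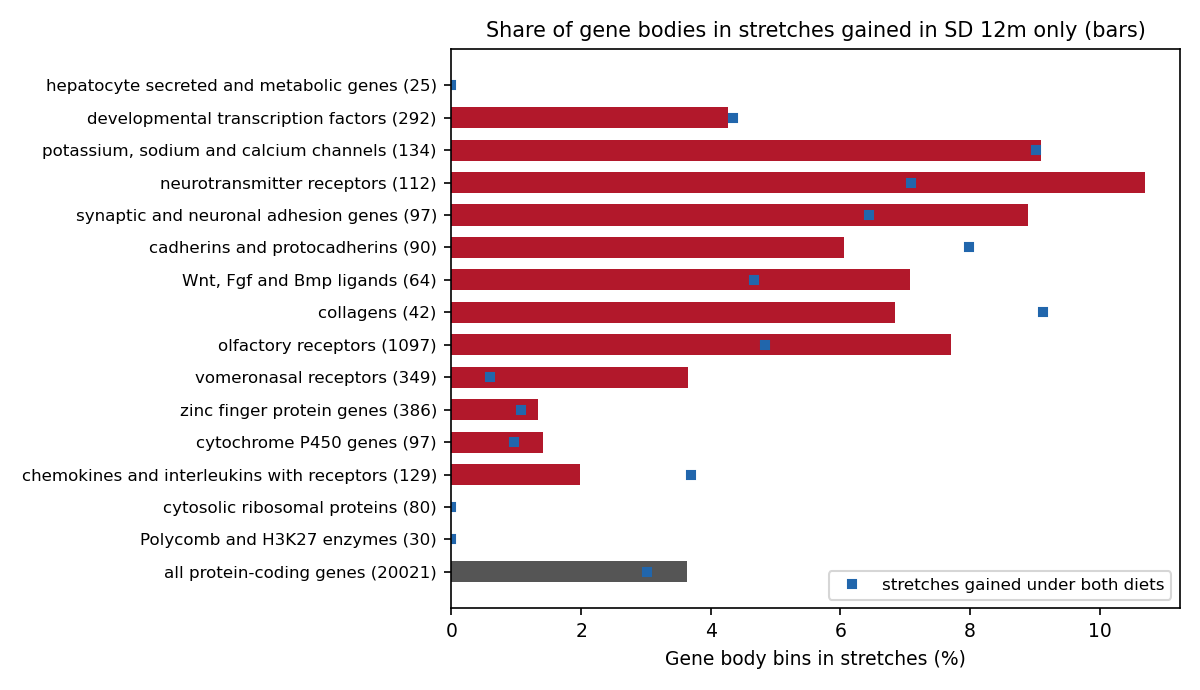
Percent of gene body bins that lie in stretches gained in SD 12m only (bars, x axis) for each list of genes, with the number of genes in parentheses; the grey bar is all protein-coding genes (3.63%). Squares give the percent in stretches gained under both diets. Neurotransmitter receptors stand at 10.7%, channels at 9.10%, and hepatocyte, ribosomal protein and Polycomb genes at 0%. Of the body bins of these lists at 0% only 1.51%, 1.69% and 12.1%, in this order, were eligible.

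Markers of other liver cells were followed in the same way. Of 7 annotated Kupffer cell and macrophage markers 3 had a stretch and none its TSS in one. Of their body bins 16.6% were in stretches (25.3% of eligible ones), the highest body share among the 20 lists, over few genes. Marco had 47.4% of its body in stretches, with state 6 at 20.1%, 100% and 52.6%. Timd4 had 24.9% and Adgre1 13.8%. Cd5l had no stretch, and state 6 stood at 0%, 100% and 100% of its body. The TSS of Cd68 and Csf1r were in state 3 in all 3 groups and that of Clec4f in state 6 in all 3. Summed over the list, state 6 covered 7.42%, 36.4% and 20.7% of the bodies. Of 8 endothelial markers Cdh5 had a stretch (12.6%), and of 8 stellate cell and fibroblast markers Lrat (15.5%, with its TSS in a stretch of 3.6 kb) and Col3a1 (4.17%) did. Of 7 cholangiocyte markers Epcam had a stretch (15.6%), and among 9 lymphocyte markers Ptprc held 11%. Of body bins, 6.40% of the lymphocyte list (38% of eligible ones, which made up 16.8%) were in stretches. For the cholangiocyte list it was 2.25% (20.3% of eligible ones, which made up 11.1%). The endothelial list stood at 1.08% (4.13% of eligible ones) and the stellate cell list at 0.540% (0.886% of eligible ones). State 6 over the bodies of these lists was 3.20%, 1.24% and 0% in endothelial markers and 1.49%, 6.67% and 4.86% in stellate cell markers. It was 0%, 14.4% and 13.9% in cholangiocyte markers and 31.8%, 41.6% and 36.6% in lymphocyte markers. The part of cell composition in the stretches was not tested.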

How the data were processed

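ChIP-seq of H3K4me3, H3K27me3, H3K27ac and H3K4me1 was performed by the study on livers of 4 groups, of which 3 were used (SD 6m was not analysed here). Per the labels and the study's methods, alignment was to mm10 (BWA 0.6.2-r126, SAMtools 0.1.18), and the authors discarded unmapped and duplicate reads, merged the libraries of a group and assigned states with ChromHMM. The deposited value is a state label from 1 to 8 for each of 13168874 bins of 200 bp. It is no signal or count, the depth behind it is unknown, and it depends on how libraries were merged, on the detection threshold and on the smoothing by the model.

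The deposited labels were used unchanged. Coordinates and sequence came from GRCm38.p6, whose chromosome ends equal those of mm10. Each gene is represented by its longest curated RefSeq transcript. Repeats are bases in lower case in the reference, and base shares exclude bins with unassembled bases. Distances, shares and domains were obtained with pandas 2.3.3, scipy 1.17.1 and numpy 2.4.6 under Python 3.11.15, and figures with matplotlib 3.10.9. On simulated segmentations 100% of the planted stretches were found.

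With 1 segmentation per group no test across mice was made, and values are given with their range or order over the 19 autosomes. Wilson intervals (95%) cover counting of bins or stretches only. Named were the 10 longest stretches, the 10 protein-coding genes with most kb, highest share (20 kb or more) and longest stretch at the TSS, up to 4 members of each of 20 lists by bases in stretches, 3 windows of 1 Mb, and the markers; of lists at 0 the members were not named. A gene that the rule selects is not reported here. The members and lists were chosen with earlier results of these data known. The regions gained under caloric restriction alone were added as a comparison after the values were seen.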

Additional observations from a re-analysis of the deposited data

How the results depend on the processing

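Under alternative choices 30 values stayed within the interval of the reported one or, for counts, within 1.5 times of it, and 14 moved. The cause was not tested unless given. The share of eligible bins (7.65% as reported) was 7.51% with stretches of 2 kb or more, 7.70% with single bins included, 7.99% without the first 3 Mb of each chromosome (284999 bins, mostly unassembled, none in a stretch), 7.71% without bins within 1 kb of a bin not in state 8 in SD 3m, 7.69% with the most frequent state of 1 kb windows and 7.03% when any state other than 6 was allowed in CR 12m. The share of stretches within 1 kb of state 6 in SD 3m (17.4%) was 16.7% with stretches of 2 kb or more, 18.3% with single bins included, and 0% by construction when bins near other states were left out. GC content (41.7%) was 41.7% with stretches of 2 kb or more, 41.6% without bins near other states and 41.7% with other states allowed in CR 12m, each beyond an interval narrower than its rounding. With predicted transcripts included, 48.6% of stretches overlapped a gene, against 38.6%, and 1142 TSS lay in a stretch, against 674. The number of stretches lay between 10865 and 13641.

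No paired analysis was possible because the libraries of each group had been merged into 1 segmentation (leaving out a library was not possible for the same reason). The unknown depth of the merged files limits every share above. The H3K27me3 files rest on 7, 8 and 6 libraries, and bins under the detection threshold count as quiescent.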

Other observations

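The following genes were chosen after their values were seen. The beta-globin genes Hbb-bh2, Hbb-bh1 and Hbb-y lay wholly in 1 stretch of 33.2 kb on chromosome 7. The adult genes Hbb-bt and Hbb-bs next to them had their TSS in state 8 in all 3 groups. Of 27 Klk genes and pseudogenes on the same chromosome, the TSS was in state 6 for 0, 9 and 4 in the order of groups used above. Over all 20021 protein-coding genes these numbers were 1999, 2765 and 2313. The TSS of 5 Klk genes lay in stretches, against 2.70% of all autosomal genes. Klk12, Klk13 and Klk14 were in the stretch of 85.0 kb, and Klk1b1 and Klk1b9 in another of 35.6 kb. Of regulators of muscle identity, Myod1 lay wholly in a stretch of 29.6 kb and Myf6 in one of 5.60 kb.

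Among genes subject to genomic imprinting, Dlk1 had its TSS in a stretch of 15.2 kb and Ndn lay wholly in one of 7.40 kb. The start of the longest Gnas transcript lay in a stretch of 22.0 kb, and the antisense Gnasas1 in one of 6.00 kb; strand was not resolved by these data. Mcpt8, which encodes a granule protease found in basophils, lay wholly in a stretch of 20 kb. Signalling and pluripotency genes with their TSS in a stretch included Shh (11.8 kb), Fgf10 (5 kb) and Pou5f1 (4.80 kb). These are single examples among 674 genes, and no family was tested. Muscle regulators and imprinted genes without a stretch were not counted.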
